A study of Mus musculus with 3 samples.

Results

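The 10 genes described here, of 31416 mouse genes to which open chromatin was assigned, encode the proteins that copy and transcribe mitochondrial DNA: Polg, Polg2, Twnk, Ssbp1, Mgme1, Top1mt, Polrmt, Tfam, Tfb2m and Rrm2b. They were taken from a named list, not from a measured value. Each gene was represented by the open-chromatin regions overlapping its body or the 2 kb on either side in mm10, with regions at the gene start (promoter regions) kept apart from the other regions. The kidneys came from mice with a point mutation of the mitochondrial gene trnE, the glutamate tRNA gene, and single cells were profiled by mtscATAC-seq, in which fixed cells keep their mitochondria and a transposase cuts accessible DNA. There were 3 libraries. Old replicate 1 was labelled as 75 weeks of age with a mutation load (the share of mitochondrial genomes that carry the mutation) of 75%, old replicate 2 as 75 weeks with 80%, and the single young sample as 3 weeks with 80%. All 3 carry the mutation, so no comparison with unmutated mitochondrial DNA was made here. Strain and sex are not given in the sources used here, and the labels do not state whether the 2 old libraries represent different animals. The spread behind each p-value is thus that of these libraries and could be technical.

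Mitochondrial DNA is copied by a small machine of its own, encoded entirely in the nucleus. The helicase TWINKLE (Twnk) unwinds the circle, the single-strand binding protein SSBP1 coats the opened strand, and polymerase gamma, made of a catalytic subunit (Polg) and an accessory subunit (Polg2), extends the new strand, while the exonuclease MGME1 trims flaps and the topoisomerase TOP1MT relieves supercoils. Transcription is carried out by POLRMT with TFAM, which also packages the DNA into nucleoids, and TFB2M, and RRM2B is the ribonucleotide reductase subunit that supplies deoxynucleotides to cells that do not divide. Kidney tubule cells, above all those of the proximal tubule, are rich in mitochondria.

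The libraries held 5656, 4302 and 4440 barcodes (old replicate 1, old replicate 2 and young, the order of every triple of values that follows), with a median of 16288.5, 13338.5 and 23319.5 counts each. After filters 5315, 3950 and 3976 cells were kept and fell into 20 clusters. Proximal tubule-like cells numbered 256, 3500 and 3321 (11 to 13 of 16 markers raised in each cluster), loop to collecting duct-like cells 53, 324 and 195, and endothelium-like cells 189, 108 and 50 (11 of 11 markers raised). The loop to collecting duct class raised 4 of 6 connecting tubule, 6 of 7 thin limb, 6 of 9 thick ascending limb and 5 of 9 principal cell markers. It also raised 3 of 7 distal convoluted tubule and 3 of 7 intercalated cell markers, so no single segment is named. Its best marker set had a mean log2 rise of 3.055, near the 2.686 of parietal epithelium. Old replicate 1 stood apart: it was mostly immune cells, with 3278 macrophage or dendritic cell-like, 1230 T or NK cell-like and 166 neutrophil-like cells, against 121, 74 and 15 in the young library and 4, 2 and 3 in old replicate 2. Cluster 16, with 143 old replicate 1 cells and 137 young cells, raised 7 of 8 B or plasma cell markers but stayed without a name, because its depth was 0.258 of its libraries' median and none of those markers was among its leading genes. Between 28 and 39 barcodes were shared by any pair of libraries, at most 0.907% of the smaller one.

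All 10 genes had a promoter region with a peak in every library (a common region), and 37 regions were assigned to them in all. The start itself was often not theirs alone. The Mgme1 start region (chr2:144270334-144271247) also holds the start of Snx5, a sorting nexin gene, 332 bp away, the Tfb2m region holds that of Cnst, 253 bp away, and the second Twnk start lies 116 bp from that of Mrpl43, a mitochondrial ribosome subunit gene. The Polg start region (chr7:79465905-79466889) holds the tRNA gene n-TRtcg5 (chr7:79466419-79466491), and the Rrm2b region meets the lncRNA gene Gm49085. Counts in these regions cannot be divided between the neighbours.

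Sequences before the start were found for 8 of the 10 genes in RefSeq (GRCm38.p6, the coordinates of mm10), all but Rrm2b and Top1mt. The 120 bases that end just before the start are shown for the 6 genes that share a motif, since of the 7 motifs searched it was in the most of them: CCGGAAG, or CTTCCGG on the other strand, a core bound by the ETS factor GABPA (also called NRF2), a regulator of mitochondrial genes. Capitals mark the motif.
Polg (chr7:79466274-79466393, minus strand): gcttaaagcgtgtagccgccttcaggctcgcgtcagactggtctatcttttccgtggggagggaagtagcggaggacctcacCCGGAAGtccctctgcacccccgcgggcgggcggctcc
Polg2 (chr11:106779538-106779657, minus strand): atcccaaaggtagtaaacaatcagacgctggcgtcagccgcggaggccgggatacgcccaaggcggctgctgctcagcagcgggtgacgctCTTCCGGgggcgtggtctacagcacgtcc
Twnk, the second start (chr19:45006438-45006557, plus strand): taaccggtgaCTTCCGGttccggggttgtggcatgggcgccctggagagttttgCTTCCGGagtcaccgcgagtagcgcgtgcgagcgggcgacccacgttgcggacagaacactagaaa
Ssbp1 (chr6:40471348-40471467, plus strand): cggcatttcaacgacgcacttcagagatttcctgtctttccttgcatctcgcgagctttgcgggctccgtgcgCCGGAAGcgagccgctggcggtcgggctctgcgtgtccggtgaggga
Polrmt (chr10:79746582-79746701, minus strand): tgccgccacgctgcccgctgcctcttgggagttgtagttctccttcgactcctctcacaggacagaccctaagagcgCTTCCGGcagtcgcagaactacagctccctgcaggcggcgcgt
Tfam (chr10:71238045-71238164, minus strand): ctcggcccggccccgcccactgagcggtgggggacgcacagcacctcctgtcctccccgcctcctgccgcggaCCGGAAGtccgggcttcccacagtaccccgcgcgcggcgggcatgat
Twnk, the first start, with no match (chr19:45005543-45005662, plus strand): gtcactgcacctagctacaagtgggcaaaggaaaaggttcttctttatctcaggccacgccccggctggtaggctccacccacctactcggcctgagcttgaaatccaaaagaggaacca

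The motif occurred in the 250 bases before the start in 6 of the 8 genes, Polg, Polg2, Twnk, Ssbp1, Polrmt and Tfam. It was present in 6.95% of 32536 RefSeq promoters of that length, and in 13.2% of the 14247 that lay in a common region. The match began 47 bases before the start in both Ssbp1 and Tfam, 43 before in Polrmt, 38 before in Polg and 29 before in Polg2, and Twnk had matches 110 and 66 bases before its second start. A place near the start was usual for the motif: of the 1883 promoters in common regions that hold it, 1396 have it in the last 120 bases. Mgme1 and Tfb2m had none. The other letters searched on both strands were in fewer of these genes, and only exact matches were counted. GGGCGG, a core for SP1, was in 5 of the 8 genes (Polg, Twnk, Ssbp1, Tfam and Tfb2m) and in 58.7% of the promoters in common regions, and in Polg its matches overlapped each other. AAGATGGC, for YY1, was in Mgme1 alone (1.89%), and CCAAT was in Twnk alone (35.3%). The palindromic NRF1 motif (7.94%), TGACGTCA, the cyclic AMP element (2.72%), and CACGTG, the E-box (8.37%), were in none of the 8 windows. A match is a description of the letters, and binding was not measured.

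**Figure D1:**
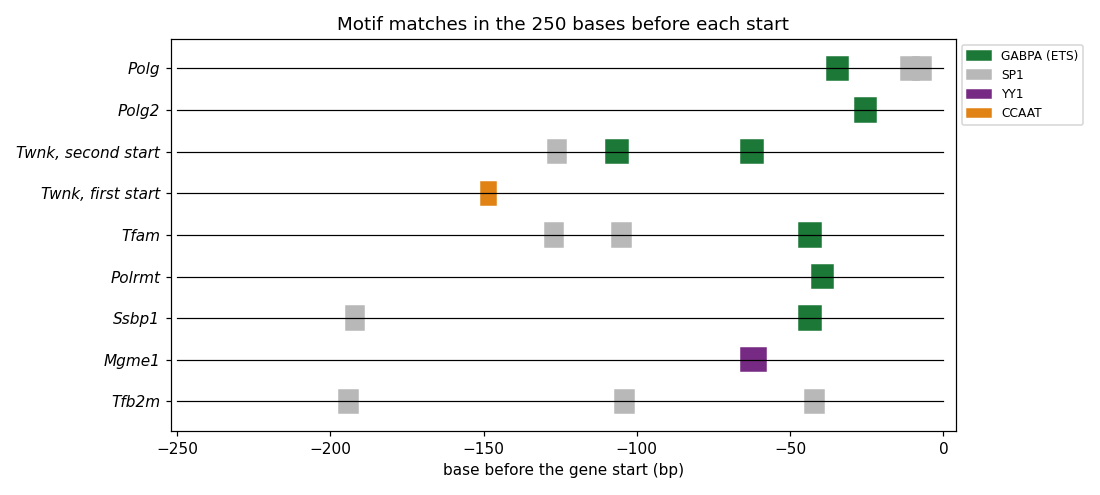
Motif matches in the 250 bases before each start, drawn by distance from the start in bp, with a line for each promoter and a block for each match. Green GABPA blocks sit between 110 and 23 bases before the start in 6 genes, with a pair at the second Twnk start and none at the first.

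In proximal tubule-like cells the promoters fell into a strong and a middling group. Levels are given as promoter CPM, the CPM of a gene's promoter regions with all common promoter regions of those cells as the total, and genes are compared per kb of region. Rrm2b had 244, 226 and 228 promoter CPM per kb, above 97.9% to 98.2% of 16873 genes. Polg followed with 172, 160 and 156, and Tfb2m with 171, 142 and 154, all above at least 90.6% of genes. The other 7 genes lay between 51.6 and 97.0 promoter CPM per kb, from near the median of all genes, which was 50.6 to 52.1, up to the 76.7th percentile for Mgme1 in old replicate 1. Twnk, with 55.3, 52.2 and 51.6, was the lowest. Its value pools 2 start regions over 1.624 kb, and the first held fewer counts than the second (given below). A rank for each Twnk start alone was not computed. Differences among these 7 were of the size of the differences between libraries for some genes, such as Ssbp1 at 57.9, 82.8 and 82.0.

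Across cell classes, promoter levels were compared within a library as a description with no test, since the classes were cut from the same cells (the regions of these genes were left out of the clustering). Intervals are exact Poisson 95% intervals on fragments and cover counting error only. Leaving out the neutrophil-like cells, the highest level over classes and libraries was at least 2 times the lowest for 6 of the 10 genes, with the widest range, 3.48 times, for Twnk. The share over all genes was not computed. Some of these extremes rest on few fragments, such as 8 for the lowest Twnk level (young endothelium-like) and 8 for the lowest Mgme1 level (young T or NK cell-like). Between macrophage or dendritic cell-like and proximal tubule-like cells, no member differed by more than 2-fold in old replicate 1 or the young library, where 13.8% and 14.8% of 7411 genes did (those at least as high as the weakest member in young proximal tubule-like cells). With all common regions as the total, Twnk passed that size, at 2.38 and 2.29. That total raises this ratio for every gene, and the share of all genes past 2-fold with it was not computed. The order of the classes differed from gene to gene.

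Polg, the catalytic subunit, had 170, 157 and 154 promoter CPM in proximal tubule-like cells. Its level was 134 and 122 in macrophage or dendritic cell-like cells of old replicate 1 and the young library, and 112 and 160 in T or NK cell-like cells. Loop to collecting duct-like cells had 110, 124 and 124, under the tubule in each library (ratios 0.650, 0.785 and 0.804, the last with an interval that includes 1). On the promoter scale T or NK cell-like cells were thus under the tubule in old replicate 1 (ratio 0.657, 0.554 to 0.776). They were level with it in the young library (1.04, 0.641 to 1.52). With the counts of all common regions as the total these ratios were 0.959 and 1.46. The macrophage value depended on the scale too. In old replicate 1 the macrophage to proximal tubule ratio was 0.788 (0.674 to 0.902) on the promoter scale and 1.03 with the counts of all common regions as the total. Within common regions the immune classes had more of their counts in promoters. A common region needs a peak in old replicate 2, which held few immune cells. Common regions held 67.4%, 82.1% and 82.7% of the counts of the 3 libraries. The part of this filter in the promoter share was not tested. Taking all common regions as the total multiplies the ratios of all genes in a class and library by the same factor, so the 10 genes move together. In old replicate 1 the ratios of Top1mt and Rrm2b in the macrophage class went from 0.948 and 0.933 to 1.24 and 1.22. Ratios rose outside the immune classes too. For Polg in old replicate 1 they went from 0.936 to 1.15 in the endothelium and from 0.650 to 0.703 in the loop to collecting duct.

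Polg2, the accessory subunit, had its highest promoter level in lymphoid and neutrophil-like cells. It was at 69.1, 68.0 and 66.4 promoter CPM in proximal tubule-like cells, 132 (121 to 144) in T or NK cell-like cells of old replicate 1 and 125 (75.2 to 195) in those of the young library. Neutrophil-like cells of old replicate 1 reached 185 (146 to 230). The T or NK to proximal tubule ratio was 1.91 (1.43 to 2.27) and 1.88 (1.12 to 2.93) in the 2 libraries with enough cells. Loop to collecting duct-like cells were also higher than the tubule in old replicate 2 (1.36, 1.04 to 1.70) and the young library (1.40, 1.01 to 1.77), but not in old replicate 1 (0.971, 0.507 to 1.58). Macrophage or dendritic cell-like cells were at 82.5 and 97.0, and endothelium-like cells at 61.3, 84.9 and 70.3 did not stand apart from the tubule.

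Twnk, the helicase, was highest in macrophage or dendritic cell-like cells and lowest in endothelium-like cells. It was at 163 promoter CPM (156 to 170) in the macrophage class of old replicate 1 and 144 (111 to 184) in that of the young library, against 89.9, 84.8 and 83.8 in proximal tubule-like cells. The ratios to the tubule were 1.81 (1.49 to 2.21) and 1.72 (1.30 to 2.16). Endothelium-like cells had 63.7, 52.6 and 46.9, under the tubule in every library, with intervals of the ratio that include 1 in each. T or NK cell-like cells were at 125 in old replicate 1 and at 48.6 in the young library (7 fragments), so their place is not settled.

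The starts of Twnk, whose sequences are shown above, did not move together. Both regions lie within reach of the Mrpl43 start, and the first is also in or near Sema4g. At the first (chr19:45005136-45005834), CPM over all common regions was 20.9 (18.9 to 22.9) in macrophage or dendritic cell-like cells and 34.8 (22 to 52.2) in neutrophil-like cells of old replicate 1, but 0.966 (0.314 to 2.25, 5 fragments) in T or NK cell-like cells of that library. At the second (chr19:45006077-45007001), T or NK cell-like cells had 90.2 (82.3 to 98.8), as many as the macrophage class with 86.3 (82.2 to 90.5), and neutrophil-like cells 42.7 (28.3 to 61.7). Proximal tubule-like cells used both at steady levels, 9.81, 9.84 and 10.1 at the first and 35.3, 28.4 and 29.7 at the second. In the young library the macrophage class had 27.8 and 63.4, and the T or NK class had 4.66 from a lone fragment and 27.9 from 6.

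Among the remaining replication and supply genes, Ssbp1, the single-strand binding protein, had 52.4, 75.0 and 74.3 promoter CPM in proximal tubule-like cells, with old replicate 1 low, and 50.4 to 107 in all other sums. Its T or NK to tubule ratio was 1.6 (1.19 to 2.07) in old replicate 1 and 1.07 (0.563 to 1.91) in the young library. Mgme1, the exonuclease, had 88.6, 80.2 and 74.9 in the tubule and 107 and 85.7 in macrophage or dendritic cell-like cells of old replicate 1 and the young library. It was lower than the tubule in neutrophil-like cells, at 51.6 (ratio 0.582, 0.350 to 0.926), and higher in young loop to collecting duct-like cells, at 112 (ratio 1.5, 1.15 to 1.91). With all common regions as the total these ratios were 0.764 and 1.69. Top1mt, the topoisomerase, had 102, 106 and 99.2 in the tubule and was lower in T or NK cell-like cells, at 80.0 and 65.9, with a ratio of 0.788 (0.617 to 0.941) in old replicate 1 that became 1.15 with all common regions as the total. Rrm2b, the nucleotide supplier, had 226, 209 and 211 in the tubule and 183 to 259 in the other classes outside the neutrophils. It had 131 (ratio 0.578, 0.418 to 0.761) in neutrophil-like cells, a ratio that became 0.758 with all common regions as the total.

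Among the transcription genes, Tfb2m was higher in the immune classes than in the tubule. It had 161, 134 and 145 promoter CPM in proximal tubule-like cells, 208 and 213 in macrophage or dendritic cell-like cells of old replicate 1 and the young library, and 277 (229 to 332) in neutrophil-like cells of old replicate 1. The macrophage ratios were 1.29 (1.12 to 1.5) and 1.47 (1.18 to 1.80). Polrmt, the polymerase, had 84.9, 70.6 and 82.1 in the tubule and 106 and 111 in the macrophage class, with intervals of the ratio that include 1 in both libraries.

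Tfam had the widest range of the 10 genes, and it came from 1 sum. Proximal tubule-like cells had 59.9, 61.4 and 68.8 promoter CPM, and all sums outside the neutrophils had 53.2 to 108. Neutrophil-like cells of old replicate 1 had 7.20 (1.48 to 21.0), which is 3 fragments in 166 cells. The ratio to the tubule of the same library was 0.120 (0.0239 to 0.360), and it stayed between 0.113 and 0.158 under the other ways of counting. In the same neutrophil-like cells Polg2, Tfb2m and Polrmt were higher than in the tubule, and those cells had 0.591 of their libraries' median depth. The young library had only 15 neutrophil-like cells and was not summed.

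**Figure D2:**
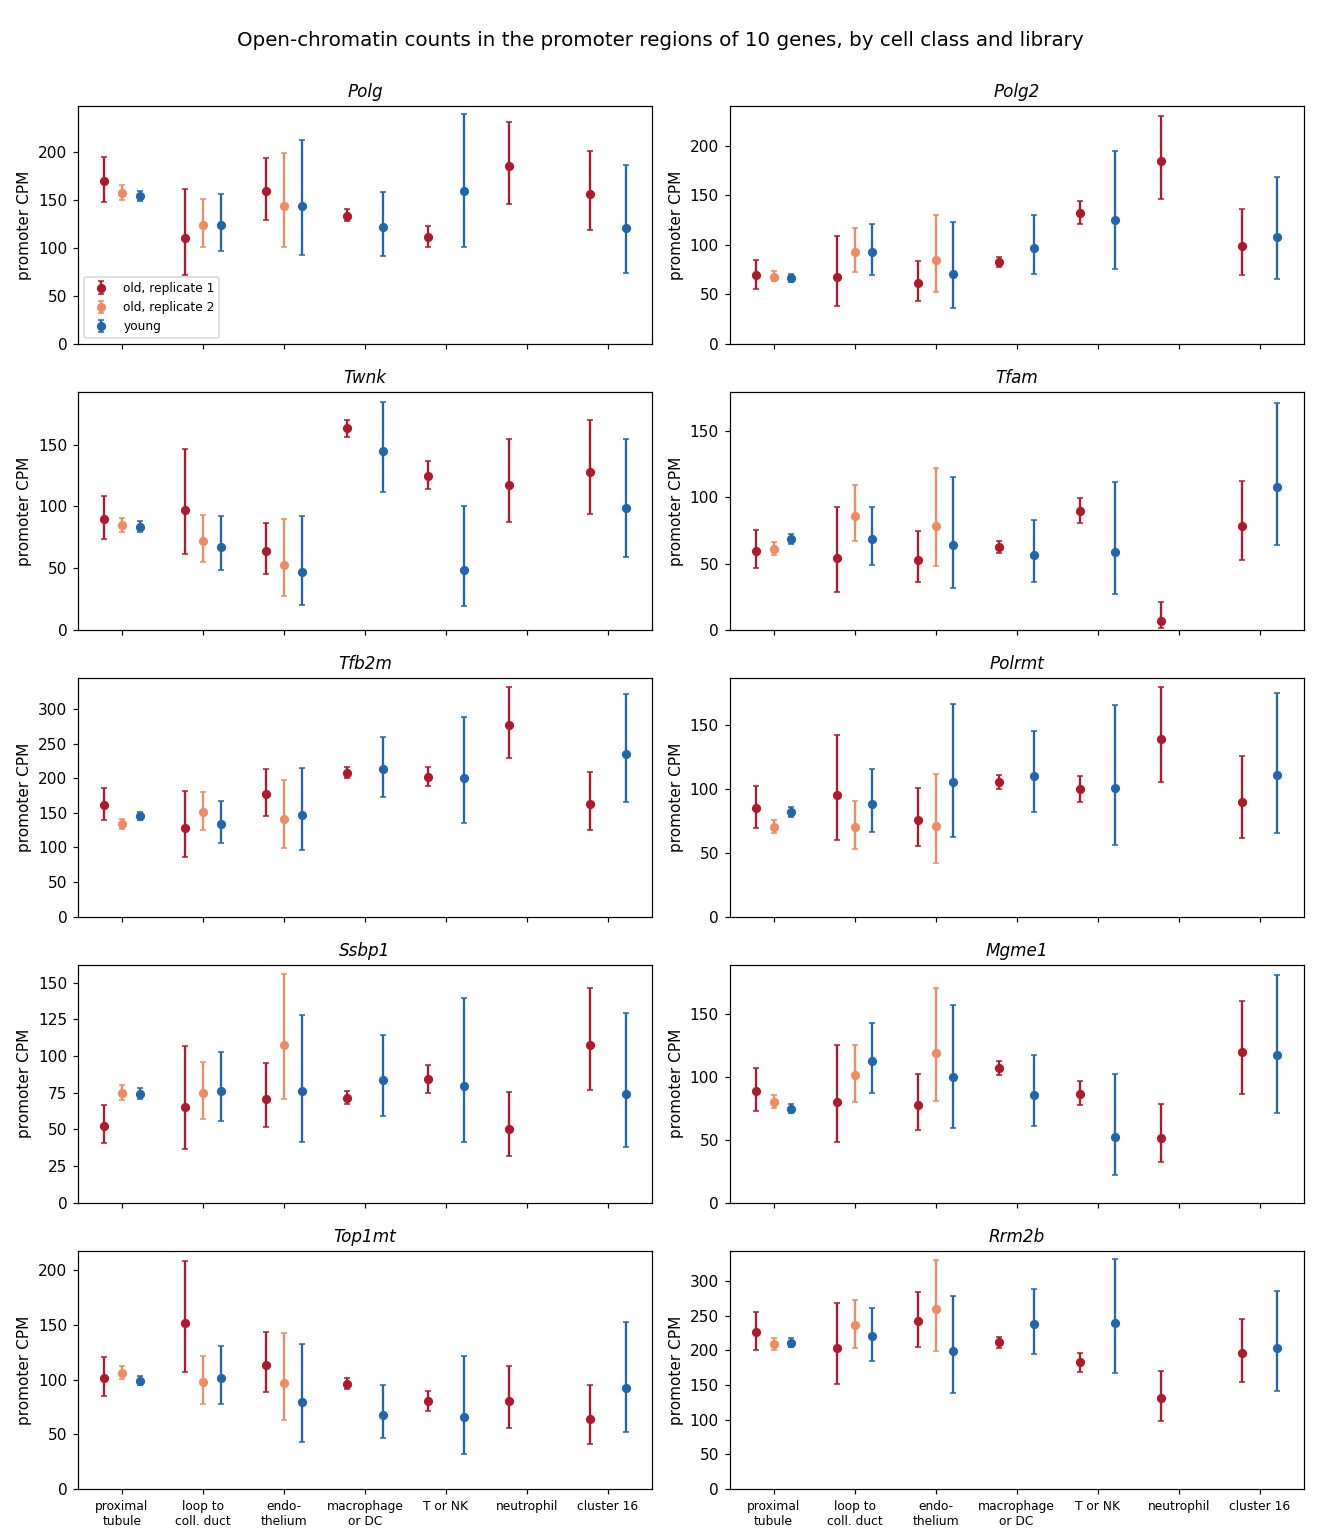
Promoter CPM (y axis) of each gene by cell class (x axis) and library (colour), for classes with at least 20 cells in the library, with exact Poisson 95% intervals on fragments. Tfam in neutrophil-like cells, at 7.20, lies under every other sum, and Twnk is highest in the macrophage or dendritic cell class.

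By the measure of likeness, the Pearson correlation of log2 promoter level over 16 class-by-library sums the genes most like Twnk among 6996 were Kxd1 (r = 0.888), Gm31024 (0.869) and Ltv1 (0.863). Without the neutrophil-like sum these were 0.882, 0.871 and 0.865. For Tfam, among 6997 genes, they were Gm36278 and Bckdhb (both 0.963) and Cd2ap (0.956), which dropped to 0.629, 0.629 and 0.562 without that sum. Gm36278 and Bckdhb had identical values in every digit kept. Only genes sharing a region with the member were left out, so Gm36278 and Bckdhb may count the same region, which was not checked. The sums share libraries, so no p-value is given.

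Away from the starts, regions of the same genes were open in some classes and nearly closed in others. These values are CPM over all common regions. Peaks were called per library, so a region not called in every library may have been called through the classes where it is high. The class contrast of such a region is a description only. A region inside Top1mt (chr15:75675412-75676358) had 10.9 (7.09 to 15.9), 16.1 (14.5 to 17.8) and 16.2 (15.0 to 17.5) in proximal tubule-like cells. It had 0.206 (4 fragments in 3278 cells) in macrophage or dendritic cell-like cells of old replicate 1, and no count in T or NK cell-like cells there, which allows up to 0.580 (3 fragments of 2 counts, as for every limit on a count of 0 here). Loop to collecting duct-like cells had 0 in both old libraries, which allows up to 7.04 and 2.00, and 2.82 (3 fragments) in the young library. The pair of Top1mt start regions had 21.0 and 37.6 in those same T or NK cell-like cells.

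Twnk had such a region too, 1526 bp after its second start by the distance of centres (chr19:45007639-45008529). It was called in old replicate 2 and the young library, with 12.9 and 14.4 in proximal tubule-like cells, 1.00 in the loop to collecting duct class of old replicate 2 and no count in that class of the young library or in either library's endothelium. No peak was called there in old replicate 1, where tubule cells were few. A region downstream of Twnk (chr19:45014289-45016058), at the start of Lzts2, was highest in loop to collecting duct-like cells, with 55.1, 53.1 and 52.1 against 18.0, 19.9 and 26.6 in the proximal tubule.

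Mgme1 and Polg2 had regions with other patterns. In Mgme1 (chr2:144279443-144280834) the proximal tubule had 11.3, 15.0 and 16 and the endothelium 12.9, 18.0 and 17.5, while T or NK cell-like cells of old replicate 1 had 0.193 (1 fragment) and its macrophage class 8.08. In Polg2 (chr11:106776787-106777752) the proximal tubule had 19.2, 14.7 and 13.9, loop to collecting duct-like cells 9.39, 10.7 and 11.3, and T or NK cell-like cells of old replicate 1 had 0.386. That last Polg2 value came from 3 fragments, and the young library did not repeat it. With common regions outside promoters as the total, young T or NK cell-like cells had 28.3 (3.43 to 102, 2 fragments). The young proximal tubule had 26.5 on that scale. The low Polg2 value in T or NK cell-like cells thus rests on old replicate 1 alone. Tfb2m had a region (chr1:179539706-179540582) called only in old replicate 2 and the young library. It had 6.96 and 9.36 in the proximal tubule and 12.4 and 11.3 in the loop to collecting duct class.

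The reverse pattern was seen upstream of Tfam, in a region (chr10:71239325-71240229) centred at -1733 bp from the start and called in old replicate 1 and the young library. Cluster 16 had 43.1 (27.3 to 64.7) and 147 (103 to 203), T or NK cell-like cells 24.3 and 51.2, and macrophage or dendritic cell-like cells 15.5 and 16.4. Proximal tubule-like cells had no count in old replicate 1 (up to 1.25) and 0.720 in the young library. Within Rrm2b (chr15:37932146-37933100) cluster 16 had 8.44 (5 fragments) in old replicate 1 and 78.5 (20 fragments) in the young library, and every other class had at most 7.12. In Ssbp1 (chr6:40475914-40476828), called in old replicate 1 alone, cluster 16 had 30.0 and the macrophage class 11.8, against 0.417 in the proximal tubule. The Tfam, Rrm2b and Ssbp1 regions of this paragraph were not called in old replicate 2, which held few immune cells. Their contrast with the tubule may thus be selected by the peak calling. Exons and introns are not annotated in the gene table used, so only gene body and flank are given.

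**Figure D3:**
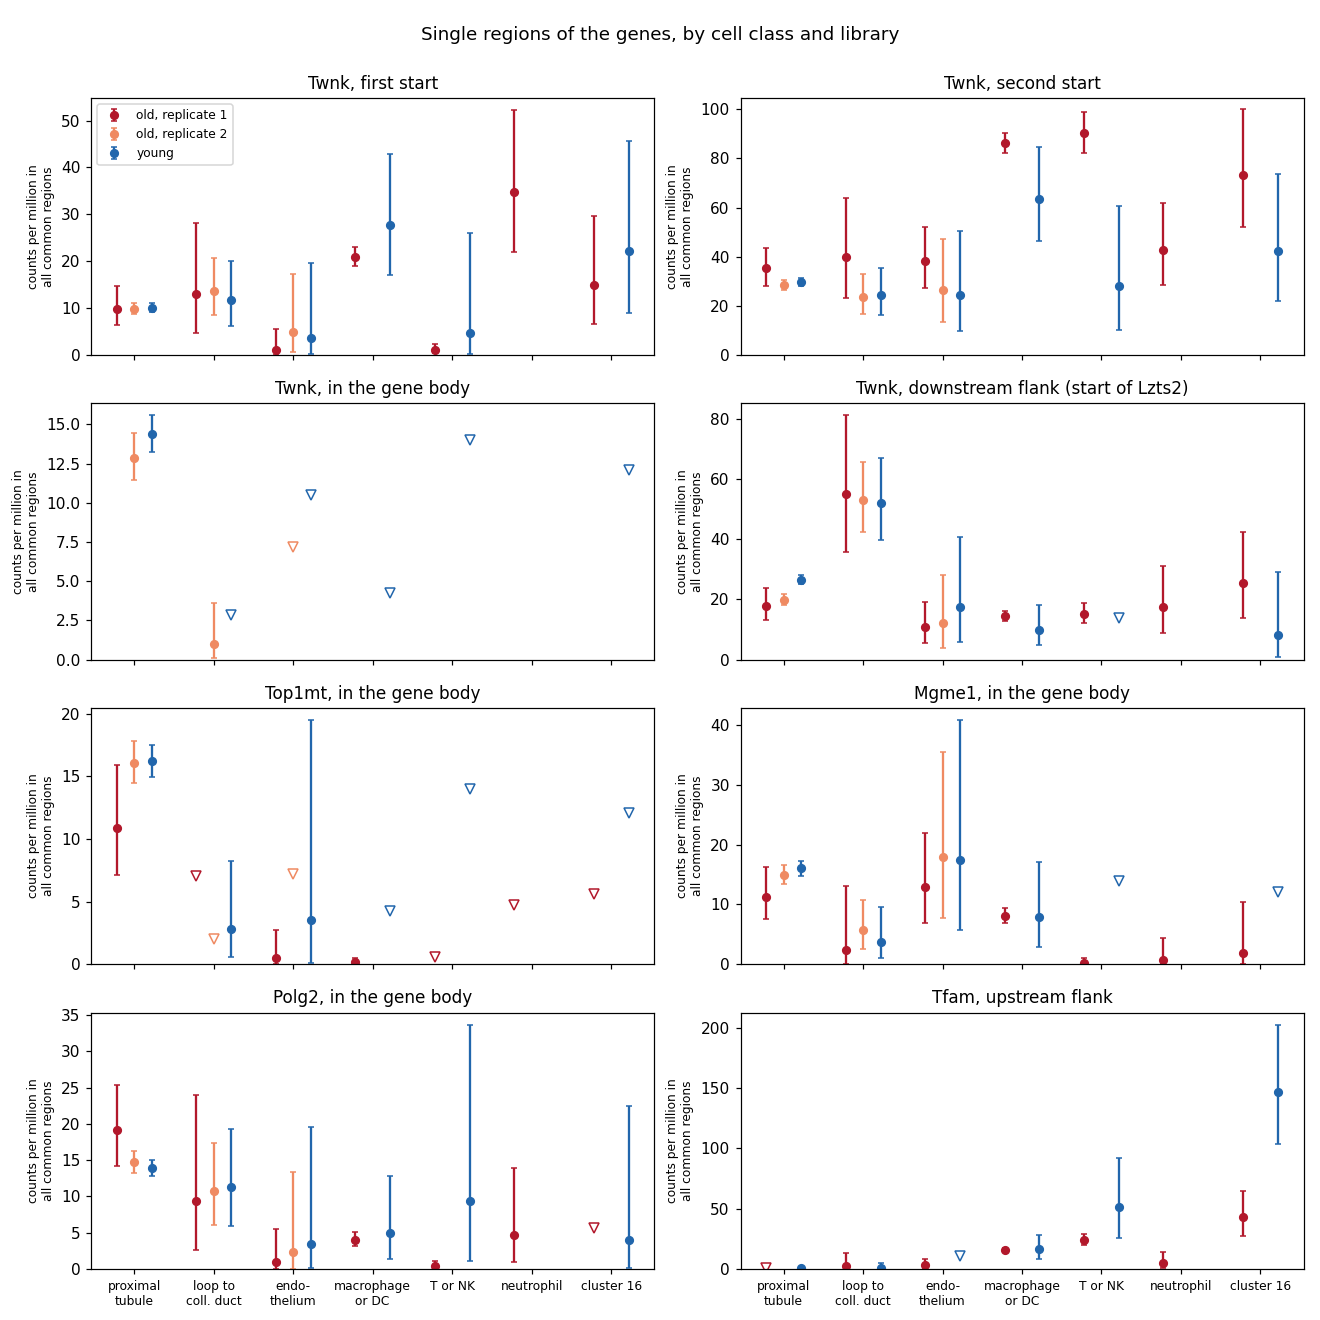
CPM over all common regions (y axis) for 8 single regions by cell class (x axis) and library (colour), with exact Poisson 95% intervals on fragments and open triangles at the limit of 3 fragments where no count was seen. A library with no peak at a region has no point. The Top1mt gene-body region is highest in the proximal tubule in old replicate 1 and old replicate 2, while in the young T or NK class the limits for Top1mt and for Twnk lie close to the tubule level. The Tfam flank region is highest in cluster 16.

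Old and young libraries were compared within each cell class to show whether open chromatin at these genes differed with age. In proximal tubule-like cells no member differed past the threshold at its promoter. The estimates were small, from -0.20 for Ssbp1 to 0.16 for Mgme1 (log2 of old over young), with a median of 0.04 for the members and 0.00 for all genes. With edgeR (quasi-likelihood F-test, p-values adjusted by Benjamini-Hochberg over 16872 genes), 0 of 10 members were called, where 0.403% of all genes were (44 higher and 24 lower in old). None of the members had an unadjusted p under 0.05 by edgeR, where 3.76% of all genes did. DESeq2 called no member either, with 35 genes higher and 12 lower in old over all genes. The 95% intervals of the 10 genes lay between -0.66 and 0.57.

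The level in each library shows the same. Polg was at 170 and 157 promoter CPM in the old libraries and 154 in the young (log2 0.07, -0.26 to 0.41), and Polg2 at 69.1, 68.0 and 66.4 (0.04, -0.40 to 0.47). Twnk was at 89.9, 84.8 and 83.8 (0.05, -0.35 to 0.45). For these 3 genes, and for Mgme1 and Top1mt, both old libraries lay above the young one. Tfam had both old libraries lower, at 59.9 and 61.4 against 68.8 (-0.19, -0.63 to 0.26), and for Ssbp1 old replicate 1 was low and old replicate 2 level with the young library, at 52.4 against 75.0 and 74.3 (-0.20, -0.66 to 0.26). Polrmt (-0.10, -0.52 to 0.32) and Tfb2m (0.00, -0.35 to 0.35) had the young library between the old ones. The adjusted p was 1.00 for every member in this fit. The proximal tubule-like cells of the 3 libraries fell mostly into different clusters: clusters 2 and 7 for old replicate 2, clusters 3, 4 and 6 for the young library, and cluster 15, which raised 5 of 7 injured proximal tubule markers, for 121 of the 256 cells of old replicate 1. With only the clusters shared by every library (113, 1309 and 301 cells) no member was called. Fewer genes of any kind were called in that setting than in the main fit, as counted in the last section.

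Within the proximal tubule class the clusters with at least 100 cells in a library (12 sums) differed by 1.54 to 1.86 times between lowest and highest for 8 of the genes. Polg2 ranged from 33.2 (21.7 to 48.6) in cluster 8 to 107 (86.0 to 132) in cluster 17, both of old replicate 2, and Mgme1 from 39.4 (26.6 to 56.2) to 111 (88.5 to 136) in the same clusters. Cluster 8 of the young library was low for Polg2, at 35.6 (11.6 to 83.1), but not for Mgme1, at 94.9 (49.1 to 166). Cluster 8 had a depth of 0.426 of its libraries' median. Its part in these values was not tested.

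In loop to collecting duct-like cells, which had fewer cells, the member promoters lay between -0.31 (Mgme1) and 0.25 (Twnk). None of 10 was called, against 0.166% of 15690 genes, and none had an unadjusted p under 0.05 by edgeR, against 4.53%. The adjusted p was at least 0.999 by edgeR. DESeq2 called no member and 1 of all genes tested. Mgme1 was at 80.1, 101 and 112 promoter CPM, and Top1mt at 151, 97.9 and 102, where old replicate 1 with 53 cells was alone high. In endothelium-like cells the members lay between -0.52 for Polrmt (75.8, 70.8 and 106 promoter CPM, -1.34 to 0.30) and 0.42 for Top1mt (114, 97.1 and 79.1, -0.37 to 1.22). None of 10 was called, against 0.162% of 13579 genes, and none had an unadjusted p under 0.05 by edgeR, against 9.0%. The lowest adjusted p was 0.788 by edgeR. DESeq2 called no member and 0 of all genes tested, so its count says nothing of the members. Intervals there were wider, from -1.34 to 1.39 over the 10 genes.

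**Figure D4:**
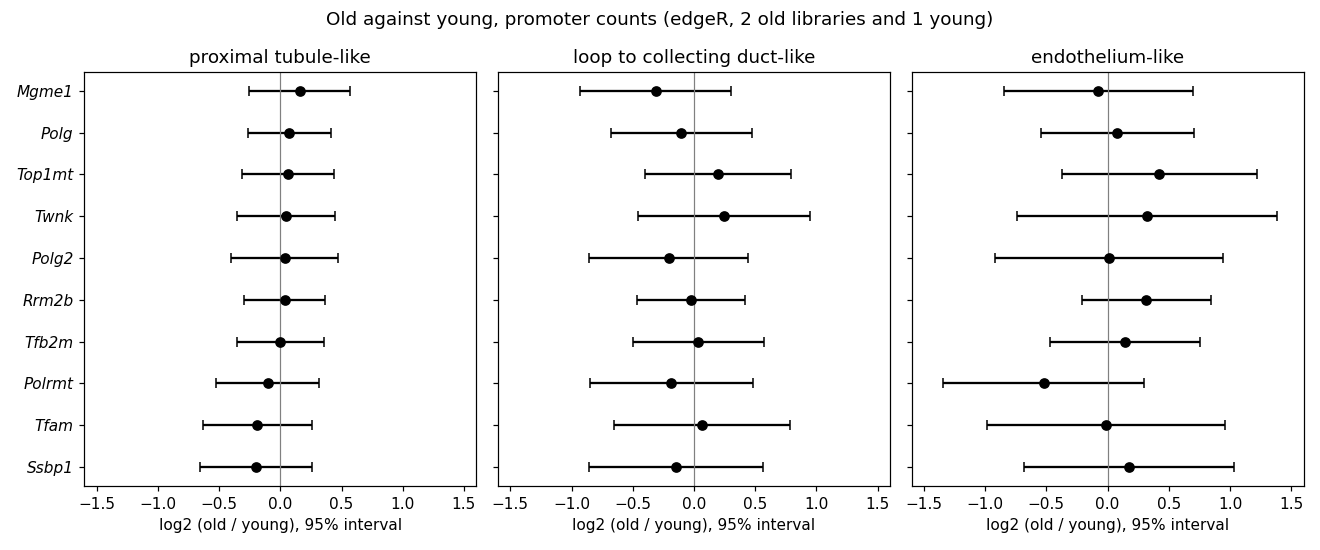
Log2 of old over young promoter counts (x axis) for the 10 genes (y axis) in 3 cell classes, with 95% intervals from edgeR (2 old libraries, 1 young). Every interval includes 0, and the widest are in endothelium-like cells, from -1.34 to 1.39.

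Regions away from the promoters could be tested for 6 members in the proximal tubule and loop to collecting duct classes and for 3 in the endothelium. The call count was 0 in each. The background was 0.123% of 15402 genes in the proximal tubule, 0.0933% of 12861 in the loop to collecting duct and 0.0% of 9450 in the endothelium, where 760 genes had an unadjusted p under 0.05 by edgeR and DESeq2 called none. No member had an unadjusted p under 0.05 by edgeR, where 5.30% of all genes did in the proximal tubule and 3.06% in the loop to collecting duct. The smallest p was that of Twnk in the proximal tubule, where the old libraries, at 43.6 and 47.1 CPM over common regions outside promoters, both lay under the young one at 60.6 (log2 -0.42, -1.0 to 0.16, adjusted p = 1.00 by edgeR). Of those counts, 86 of 104, 904 of 1173 and 2104 of 2518 were in the region at the start of Lzts2. Mgme1 was also lower in both old libraries (22.6 and 27.3 against 30.5), and for Top1mt (26.8, 36.6 and 35.6) only old replicate 1 was low. The Top1mt estimate of -0.15 became 0.96 with only the clusters shared by every library, and neither was called. By an interaction term in edgeR over promoter or other regions, no member passed the threshold between any pair of the 3 classes (42 tests). The smallest p was for Mgme1 promoters between the proximal tubule and the loop to collecting duct (log2 difference 0.45, adjusted p = 0.9997 by edgeR). Over all genes, promoter calls were 2 of 15690 (proximal tubule and loop), 30 of 13578 (proximal tubule and endothelium) and 7 of 13321 (loop and endothelium). In other regions they were 4 of 12861, 0 of 9450 and 8 of 9091. These fits had 1 residual degree of freedom and few calls for any gene, so the absence of member calls says little.

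A wider list of 69 genes that act with these 10 was counted in the same fits: nucleotide supply, repair nucleases and ligase, transcription elongation and termination, RNA processing, nucleoid proteins and proteases, and regulators of mitochondrial biogenesis. No gene of it was called by edgeR, in promoters (66 tested in the proximal tubule, 65 in the loop to collecting duct, 64 in the endothelium) or in other regions (38, 31 and 22). The median log2 of old over young at promoters was -0.05, -0.07 and -0.06 in the 3 classes, against 0.00, 0.01 and 0.01 over all genes tested. In the proximal tubule 26 of 66 estimates were above 0, and unadjusted p was under 0.05 for 0, 3 and 6 promoters in the 3 classes, where 3.76%, 4.53% and 9.0% of all genes were. The nucleotide supply genes had 2 of 12 proximal tubule promoters above 0 and a median of -0.10, and the RNA processing and decay genes 10 of 17 and a median of 0.01. For nucleotide supply it was 6 of 12 promoters (median 0.02) in the loop to collecting duct and 5 of 12 (-0.08) in the endothelium. In other regions it was 5 of 9, 1 of 7 and 3 of 6 in the 3 classes. The share of all genes above 0 was not counted.

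The extremes of that list, taken by rule, were modest in the proximal tubule. Mtpap, the mitochondrial poly(A) polymerase, was at the low end with -0.39 and Abat, which acts in nucleotide salvage and in GABA breakdown, with -0.36. Gabpb1, the partner of GABPA, was at the high end with 0.30 and Rexo2, a mitochondrial oligoribonuclease, with 0.26. In other regions of the proximal tubule Gabpb1 was at the low end with -0.72 and Nrf1, a regulator of mitochondrial genes, had -0.58, while Dna2, a nuclease and helicase, had 0.99 and Suclg1, a subunit of succinate-CoA ligase, 0.59. For Gabpb1 the promoter and the other regions thus had estimates of opposite sign. In loop to collecting duct-like promoters the ends were Myc (-0.69) and Mpv17 (-0.66), and Exog (1.14) and Gabpb1 (0.94). In endothelium-like promoters they were Pprc1 (-0.88) and Supv3l1 (-0.73), and Sucla2 (1.64) and Trmt10c (1.47). In other regions they were Primpol (-1.10), Gabpb1 (-0.79), Yy1 (0.85) and Sp1 (1.82) in the loop to collecting duct, and Samhd1 (-1.16), Ppargc1a (-0.96), Rrm2 (1.52) and Exog in the endothelium, where Exog had no count in the young library and no fold is given. None of these passed the threshold by edgeR, and the lowest adjusted p among them was 0.322, for Pprc1.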

How the data were processed

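Open chromatin was read from 3 single-cell libraries. The deposited tables hold raw counts of transposase cuts per peak and barcode, made by the authors with Cell Ranger ATAC 2.1.0 on mm10 with peaks called per library, per the file headers and the submitters' processing notes. Most counts were even (89.5% to 94.3% of values), so intervals use fragments (count over 2, rounded up). Peaks were merged into 250005 regions, of which 72317 had a peak in every library. A promoter region overlaps the 1000 bp either side of a RefSeq start. For Rrm2b and Top1mt both gene ends were used as starts. Cells with at least 1000 counts were kept and 248, 133 and 135 barcodes removed as likely doublets, those nearest to simulated doublets at a preset rate of 0.8% per 1000 barcodes. Clusters came from latent semantic indexing (30 components, 70124 regions) and the Leiden method (leidenalg 0.10.2, seed 7), without 192 regions of the members and the wider list. Clusters were named from 20 marker sets, with at least 3 markers raised by log2 1 (pseudocount 1 CPM). That pseudocount, the use of all merged regions for naming, and leaving Aqp1 out of the leading genes were settled after the clusters had been seen. Cluster 19 also stayed without a name, at 0.142 of its libraries' median depth.

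Counts were summed per library and class (at least 20 cells) and old was tested against young with edgeR 4.0.16 (quasi-likelihood, TMM factors, summed count at least 20, adjusted p under 0.05 over all genes). A step tested on simulated data, with 200 genes changed by log2 2, was part of the run. The named genes were all members, the wider list's called genes or else the 2 highest and 2 lowest per fit, and the 3 genes most like each of the 2 widest-ranging members. Of the wider list, 68 of 69 symbols matched. The members and lists were chosen with earlier results of these data known.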

Additional observations from a re-analysis of the deposited data

How the results depend on the processing

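No member was called under any alternative: of 418 member estimates under tested alternatives 0 passed the threshold, and 15 had the opposite sign. These were, at promoters in the proximal tubule, Polg -0.02 with shared clusters only, Rrm2b -0.05 without the clusters led by Aqp1, Top1mt -0.06 without the cluster with injury markers and Twnk -0.14 with promoter and other regions summed. In the endothelium they were Polg2 -0.02 (summed) and -0.06 (at least 3000 counts per cell), and Tfam 0.01 (no scaling), 0.03 (no filter), 0.01 (DESeq2) and 0.06 (summed). In other regions they were Tfam -0.15 (all merged regions) and -0.02 (without the Aqp1 clusters) and Top1mt 0.96 (shared clusters) in the proximal tubule, and Mgme1 at 3000 counts, -0.30 in the loop to collecting duct and 0.10 in the endothelium. The alternatives without the injury or Aqp1 clusters were chosen after seeing the data. Polg in macrophages over tubule was 1.03 with all common regions as the total.

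The count of all genes called moved far more. For proximal tubule promoters, 68 became 0 with all merged regions, 119 with a 500 bp window, 159 summed, 44 at 3000 counts, 12 with shared clusters and 39 without the injury cluster. For other regions of the proximal tubule, 19 became 47 (RLE), 93 (no scaling), 37 (DESeq2), 0 (all merged regions) and 104 (fragments). In the loop to collecting duct, 26 promoters became 1 with DESeq2 (1 higher, 0 lower, against 10 and 16), and 12 other regions became 0 (no scaling), 1 (DESeq2) and 0 (all merged regions). In the endothelium, 22 promoters became 0 with DESeq2, all merged regions or a 500 bp window, 7 with fragments and 46 summed, and 0 other regions became 27 (no scaling), 14 (no filter) and 16 (fragments). The cause was not tested. For the loop and endothelium, made of 1 cluster each, shared clusters change nothing. Leaving out an old library leaves 1 against 1, a value with no test: of 90 such values 1 moved by more than the spread of the old pair, Top1mt in other regions of the loop without old replicate 2, where the remaining old library had no count and no fold is given. No paired analysis was possible because the groups share fewer than 2 replicate numbers. Member intervals were widest in other regions of the loop to collecting duct, from -3.88 to 4.08, where 6 members were tested. In other regions of the endothelium only 3 were tested. The median standard error over all genes was 0.625 in the loop and 0.652 in the endothelium.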
